A study of Mus musculus with 5 samples.

Results

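The regions described here are stretches of open chromatin that had a called peak in at least 2 of 3 mutant limb bud libraries and in neither of 2 control libraries. Peaks of the 5 lists on chromosomes 1 to 19 were merged wherever they shared at least 1 bp, and 576 of the 85522 merged regions (0.674%) met this criterion. Presence and absence of peaks chose them, so their number and their folds are given as descriptions without a test. The mutant embryos had the genotype PrxCre/+;Smarcc1c/c (n = 3), in which a Cre recombinase active in limb bud mesenchyme acts on conditional alleles of Smarcc1, and the control embryos had the genotype Prx+/+;Smarcc1c/c (n = 2), so that both groups carried the conditional alleles and differed in the Cre. Each library was made from about 50,000 cells of the anterior forelimb pair of 1 genotyped embryo at E11.5 (40 to 48 somites), and the stated question of the series is whether the BAF complex mediates repression by GLI proteins. Cells that the Cre does not reach, such as surface ectoderm, blood vessels, nerves and muscle precursors, stay in such a sample, and in bulk tissue more cells of a type and more open chromatin per cell cannot be told apart.

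In ATAC-seq the transposase inserts sequencing adapters where DNA is not wrapped in nucleosomes, so fragments pile up over active promoters, enhancers and insulators. Smarcc1 encodes BAF155, a scaffold subunit of the BAF (SWI/SNF) complex, which uses ATP to slide or evict nucleosomes and is known above all for keeping enhancers open. BAF complexes also take part in silencing at some genes, in part through their antagonism with Polycomb complexes, and regions that gain accessibility without a BAF subunit are among the changes that such an experiment can find. GLI proteins are the transcription factors of Hedgehog signalling, and in the anterior limb bud their repressor forms prevail.

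The lists held 35988, 42185 and 26581 peaks in mutants 1, 2 and 3, against 68009 and 59252 peaks in controls 1 and 2. The background level behind the lists was 5.48, 5.09 and 4.95 fragments per position in the mutants and 4.77 and 6.42 in the controls, and the read numbers are unknown. Peaks at an end of Prrx1, Twist1 and Twist2, which encode transcription factors of limb mesenchyme, were found in all 5 libraries. A peak within 1 kb of an end of Tbx5, the forelimb identity gene, was found in mutant 1 and both controls and not in mutants 2 and 3. At Prrx2, a relative of Prrx1, it was found in mutants 1 and 2 and both controls and not in mutant 3. Of 90 marker genes of ectoderm, endothelium, blood, muscle precursors and nerve tissue, 51, 58 and 39 had a peak at a gene end in mutants 1, 2 and 3, against 64 and 57 in controls 1 and 2. These counts were not scaled to the length of the lists.

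A member region at the start of a gene shows most directly what the chromatin data cover, and the 250 bases before the start are given here for 4 genes whose strongest member summit lay in this window (GRCm38.p6 sequence from RefSeq, the same coordinates as mm10, read 5′ to 3′ in the direction of the gene). The genes were chosen after their values were seen, to show CpG-rich and CpG-poor examples, and capitals mark CpG dinucleotides. The windows are chr1:39194022-39194271, plus strand, at Npas2, chr17:30901617-30901866, plus strand, at Glp1r, chr4:89282193-89282442, minus strand, at Cdkn2a, and chr9:118477939-118478188, plus strand, at Eomes.
Npas2: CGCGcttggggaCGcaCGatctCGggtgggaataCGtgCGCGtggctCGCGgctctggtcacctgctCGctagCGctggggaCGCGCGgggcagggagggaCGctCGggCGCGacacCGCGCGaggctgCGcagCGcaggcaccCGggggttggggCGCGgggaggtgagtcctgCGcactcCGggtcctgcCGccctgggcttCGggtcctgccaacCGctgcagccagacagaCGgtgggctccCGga
Glp1r: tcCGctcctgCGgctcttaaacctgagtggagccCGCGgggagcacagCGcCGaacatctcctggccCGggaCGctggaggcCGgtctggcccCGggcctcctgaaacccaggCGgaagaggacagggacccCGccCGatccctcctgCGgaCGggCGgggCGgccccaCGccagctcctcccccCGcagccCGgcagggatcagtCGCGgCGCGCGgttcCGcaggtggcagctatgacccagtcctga
Cdkn2a: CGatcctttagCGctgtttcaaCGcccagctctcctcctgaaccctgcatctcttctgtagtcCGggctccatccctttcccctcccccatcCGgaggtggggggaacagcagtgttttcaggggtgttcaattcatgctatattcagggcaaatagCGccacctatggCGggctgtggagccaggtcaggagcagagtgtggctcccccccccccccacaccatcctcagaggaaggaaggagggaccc
Eomes: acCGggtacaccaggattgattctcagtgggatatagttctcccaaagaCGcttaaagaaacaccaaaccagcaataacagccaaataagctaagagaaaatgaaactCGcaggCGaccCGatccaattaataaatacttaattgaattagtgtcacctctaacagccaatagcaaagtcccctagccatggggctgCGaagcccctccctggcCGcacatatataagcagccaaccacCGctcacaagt
The window before Npas2 holds 34 CpG dinucleotides and that before Glp1r 26, as in a CpG island, whereas the windows before Cdkn2a and Eomes hold 7 and 8.

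Most of the regions were shared by the same pair of mutants. Peaks in mutants 1 and 2 and not in mutant 3 made up 395 regions (68.6%), while 81 were held by mutants 2 and 3, 58 by mutants 1 and 3, and 42 (7.29%) by all 3 mutants. This largest pair is not particular to the members. Of regions with a control peak, mutants 1 and 2 shared 25083, mutants 1 and 3 20393 and mutants 2 and 3 20112, whether or not the remaining mutant held a peak. All 3 mutants held far more of these. Of 26900 regions in at least 2 mutants and a control, they held 19128 with both controls and 216 with 1 control. Mutant 3 had the shortest list and took part in 181 of the 576 members, which were 0.681% of its peaks. The count depended on single libraries and on the length of the lists. With the peaks merged anew without mutant 1 it was 129, without mutant 2 it was 107 and without mutant 3 it was 439, and without control 1 or control 2 it was 1524 and 1248. With every list shortened to its 26581 strongest peaks it was 2656, and 117 of the 576 regions were among those. At a −log10 q of at least 5 in every list it was 329, among them 70 of the 576. Regions seen in 1 mutant and no control were far more numerous, 9591 in all, of which 1967 were found in mutant 1 alone, 6956 in mutant 2 alone and 668 in mutant 3 alone. In the other direction, 13583 of the 85522 regions (15.9%) were called in both controls but in no mutant.

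The regions were weakly open in the mutants. Fold enrichment here is the authors' value at the summit over the background of the same library, so it ranks peaks within a list and is not scaled between libraries. The median fold was 3.24 in mutant 1, 3.28 in mutant 2 and 3.36 in mutant 3, equal to 20, 19 and 19 fragments at the summit. These medians stood at percentiles 17.6, 25 and 18.8 within their own lists, whose median folds were 4.17, 3.94 and 4.37. The highest folds were 5.71, 6.08 and 5.05, or 36, 36 and 29 fragments, and the lowest were 2.47, 2.46 and 2.86. The lowest fold called at all was 2.43 in control 1 and 2.29 in control 2, at 13 and 16 fragments, so a control region without a peak can still be open below that level. Just outside the criterion, 1453 regions with a peak in at least 2 mutants were left out because 1 control held a peak (control 1 in 812 and control 2 in 641), and the control fold there had a median of 3.47 and ran from 2.43 to 11.3.

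**Figure D1:**
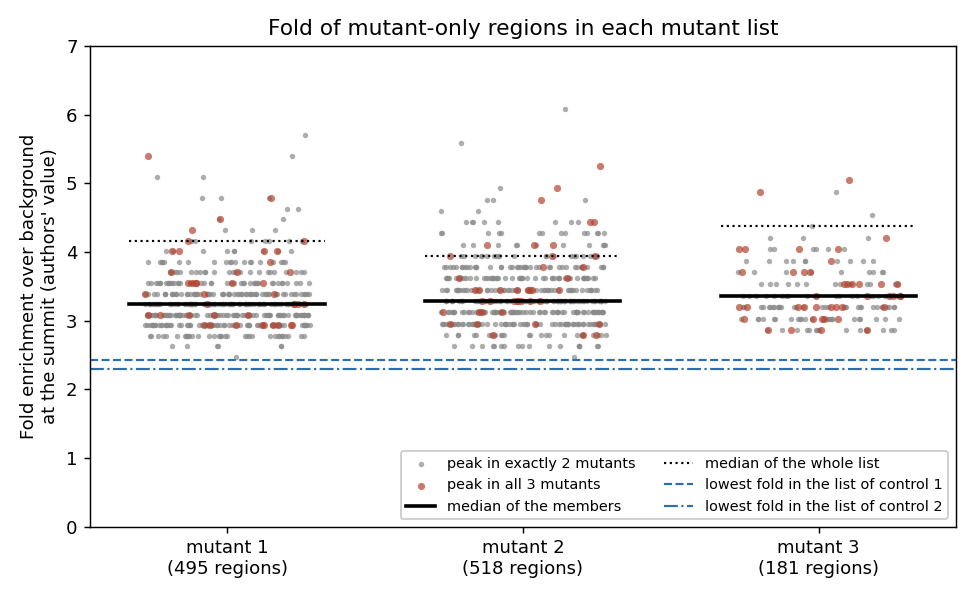
Fold enrichment (authors' value at the summit, vertical axis) of the mutant-only regions in each mutant list, 1 point for each region, red where all 3 mutants held a peak; solid bars are the medians of the members (3.24, 3.28 and 3.36), dotted bars the medians of the whole lists, and blue lines the lowest fold in each control list (2.43 and 2.29). Most members lie between the lowest called fold of the controls and the median of their own list.

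Whether the regions recur in a mutant that the choice did not use was measured by leaving out each mutant in turn. Of the 123 regions chosen by mutants 2 and 3 and absent from both controls, 42 (34.1%) held a peak in mutant 1. Of the 100 chosen by mutants 1 and 3, 42.0% held a peak in mutant 2, and of the 437 chosen by mutants 1 and 2, 9.61% held a peak in mutant 3. Regions of the same pairs of mutants at like fold that also had a control peak recurred more often, at 76.6%, 77.6% and 31.1% in mutants 1, 2 and 3. The mean difference was -33.2 percentage points. The recurring regions are the same 42 for each left-out mutant, and the rule used these peak calls, so the 3 values are not independent and are given without a test. Against regions with a peak in exactly 1 control, a comparison added after seeing the data, the mean difference was -11.5 points, also without a test. Regions found in only 1 of the choosing mutants and in no control recurred in 5.61%, 15.3% and 1.53% of cases in mutants 1, 2 and 3, below the regions found in both. These single-mutant shares were not matched on fold. For each left-out mutant, the share of regions found in both stood between that of single-mutant regions and that of control-shared regions. Control-shared regions also span the control peak, and no share was matched on region width. The order describes peak calls that the rule used and is no test of recurrence.

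**Figure D2:**
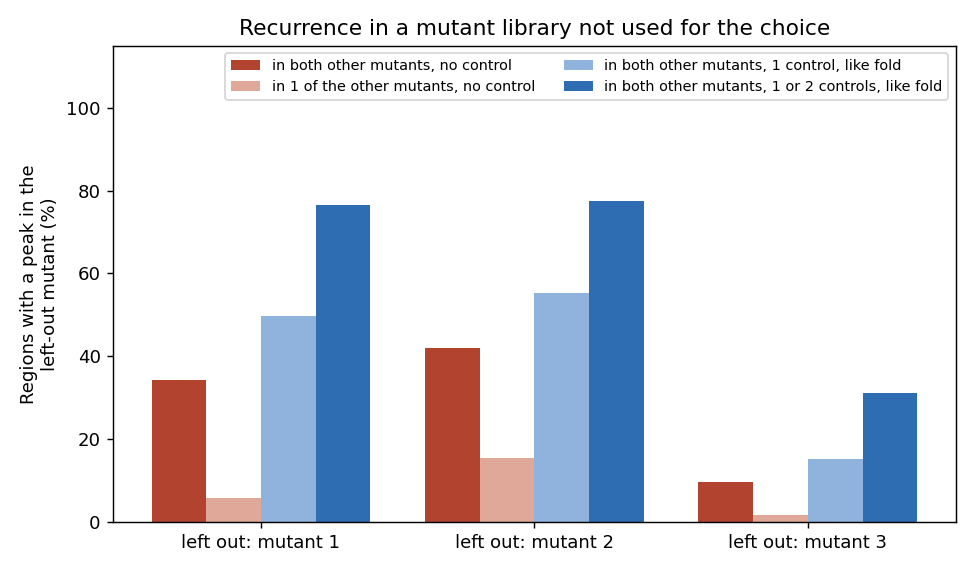
Share of regions (%, vertical axis) with a peak in the left-out mutant named below each set of bars: regions of both other mutants and no control (red; 34.1, 42.0 and 9.61%), of 1 of the other mutants and no control (pale red), and of both other mutants at like fold with exactly 1 control peak (pale blue) or at least 1 (blue; 76.6, 77.6 and 31.1%). In each left-out mutant the red bar lies above the pale red and below both blue bars. The pale red shares are not matched on fold.

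The same question was put to the controls. Of 1388 regions with a peak in at least 2 mutants and none in control 2, 812 (58.5%) held a peak in control 1. Of 1217 such regions without a peak in control 1, 641 (52.7%) held a peak in control 2. The regions that 1 control lacked were thus present in the other in 52.7% and 58.5% of cases, a mean of 55.6%, and with 2 values no test was made. With all lists at equal length the mean was 34.3%.

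Where both mutants of a pair held a peak, their summits lay close together. The median distance between summits was 106 bp in the 437 regions of mutants 1 and 2, 94.5 bp in the 100 regions of mutants 1 and 3 and 103 bp in the 123 regions of mutants 2 and 3. In other regions of the same pairs at like fold it was 132, 135 and 137 bp. This comparison was not matched on region width, and a wider merged region can hold summits further apart. The median width was 410.5 bp for the members and 1356 bp for regions open in all 5 libraries. The part of width in the difference was not tested. Summits lay within 100 bp of each other in 47.6%, 53% and 48.8% of the members of these pairs. The pairs share libraries, so the values are given without a test.

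By position, 310 of the 576 regions (53.8%) lay inside a gene body, 178 (30.9%) were intergenic and 88 (15.3%) were gene-end regions, meaning that the strongest summit was at most 1 kb from the start or the end of a protein-coding gene. The gene-body and intergenic shares are given for the members only and were not compared with all merged regions. The median distance from a gene end was 5.58 kb, and 31 regions lay over 100 kb from any. Of all merged regions 18.3% were gene-end, and of those of exactly 1 mutant and no control 12% were. Among regions open in all 5 libraries the share was 52.9%, and among regions of both controls and no mutant it was 3.72%. The regions were 205 to 1405 bp wide (median 410.5 bp, merged over the lists). On the chromosomes, members made up 1.09% of the regions of chromosome 7 and 1.04% of those of chromosome 4, the highest shares, and 0.353% of those of chromosome 18, the lowest.

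At like fold, the gene-end share of the members lay below that of other peaks of the same list by less than the spread between libraries. Within 1 kb of a gene end lay 14.2% of member peaks in mutant 1, against 19.3% of its other peaks at like fold. The shares were 15.8% and 15.9% in mutant 2, and 14.4% and 26% in mutant 3. The difference was -5.62 ± 5.80 points (SD, n = 3), lower in 3 of 3 but smaller than its own spread (exact two-sided sign-flip permutation p = 0.25), and it turned to 1.14 points with a window of 5 kb. Without regard to fold the other peaks were gene-end in 36.9%, 33.4% and 45.3% of cases. Member peaks had median widths of 276, 299 and 267 bp in mutants 1, 2 and 3, against 291, 296 and 295 bp for other peaks at like fold, a difference of -13.3 ± 15.6 bp (SD, exact permutation p = 0.5, n = 3). By the rule each member is shared by at least 2 of the 3 mutants. The 3 differences are therefore not independent, and neither the SD nor the p takes account of this.

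**Figure D3:**
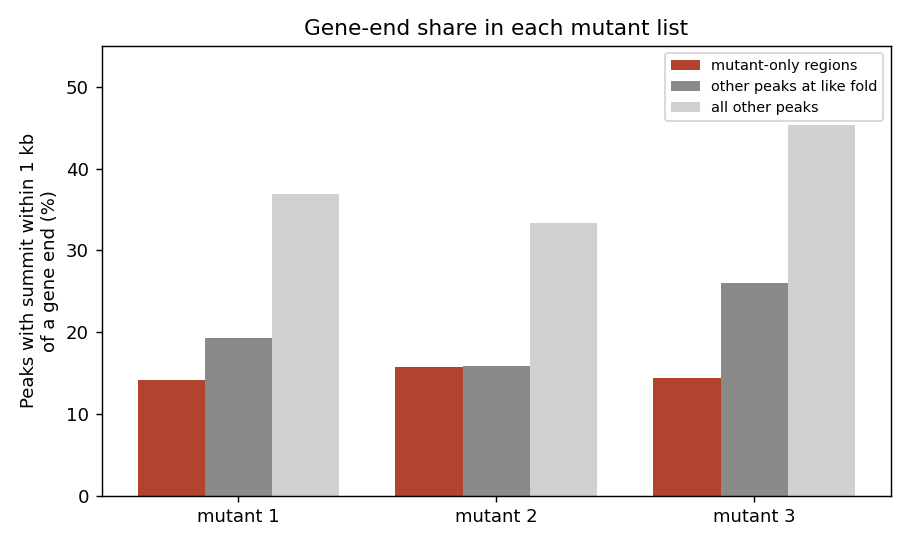
Share of peaks (%, vertical axis) whose summit lay within 1 kb of an end of a protein-coding gene, in each mutant list, for member peaks (red; 14.2, 15.8 and 14.4%), other peaks weighted to the same fold percentiles (dark grey; 19.3, 15.9 and 26%) and all other peaks (pale grey). The gap between members and all other peaks is smaller at like fold in each mutant list, and it remains largest in mutant 3.

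Many of the regions flanked chromatin that was open in the controls. The nearest control peak lay a median of 1074.5 bp from the region, within 1 kb for 278 regions (48.3%) and within 100 bp for 51. This median was 1970 bp without mutant 2, 1876 bp without control 1 and 1924 bp without control 2. It was 3165 bp among the regions found at a −log10 q of at least 5 and 7939.5 bp with lists of equal length. At the other extreme, 81 regions (14.1%) had no control peak within 10 kb. Regions in at least 2 mutants and a control lay a median of 3625.5 bp from another control region, 29.4% of them within 1 kb. Regions of exactly 1 mutant lay a median of 1384 bp from a control peak, 42.7% of them within 1 kb. The neighbouring control peak within 1 kb was itself weak, with a median fold of 3.37. Of 932 regions of both controls within 10 kb of a member, 490 (52.6%) were called in each of the 3 mutants and 111 (11.9%) in none, beside 43.1% and 30.6% over all 44386 regions of both controls.

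**Figure D4:**
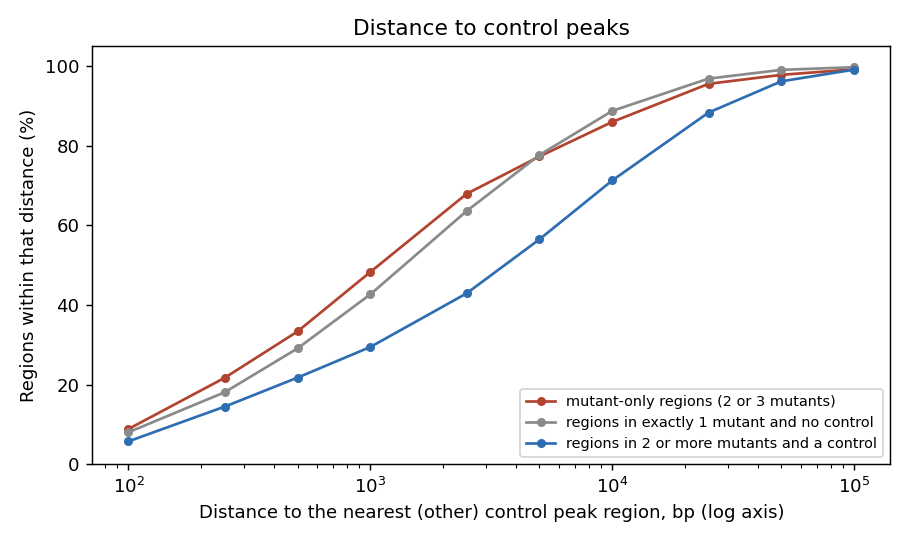
Cumulative share of regions (%, vertical axis) whose nearest control peak lies within the distance on the horizontal axis (bp, log axis), for the mutant-only regions (red), regions of exactly 1 mutant and no control (grey) and regions of at least 2 mutants and a control (blue, distance to another control region). At 1 kb the curves stand at 48.3, 42.7 and 29.4%.

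Among the 42 regions of all 3 mutants, the highest mean rank went to a region with no gene end within 100 kb (chromosome 2, 12708914 to 12709707, mm10). It had 30, 28 and 28 fragments at the summit in mutants 1, 2 and 3, and the next control peak lay 3165 bp away. A region 12.1 kb from an end of Zfp982, a KRAB-type zinc finger gene of a rodent gene cluster (chromosome 4, 147430718 to 147431378), had 34, 31 and 20 fragments and a control peak 217 bp away. They ranked highest among the 42 and not among all members, and both lay outside any protein-coding gene.

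Other regions of all 3 mutants lay at genes of known function. At Hcn2, which encodes a pacemaker channel of heart and nerve cells, the region (chromosome 10, 79716636 to 79717450) began beside the gene start and had 24, 26 and 21 fragments. A control peak with a fold of 5.37 lay 38 bp from it. A region inside Zscan10, a zinc finger gene of pluripotent cells (chromosome 17, 23603625 to 23604079), had 27, 23 and 23 fragments, and a region 34.5 kb from Smad6, an inhibitor of BMP signalling (chromosome 9, 63918361 to 63918708), had 25, 23 and 20. The next control peaks lay 2444 and 1962 bp away, with folds of 2.77 and 2.83. A region inside Nphp4 (chromosome 4, 152491297 to 152491840) had 22, 29 and 23 fragments, with 10490 bp to the next control peak. At C1rb, which encodes a complement protease, a region just before the gene start (chromosome 6, 124569953 to 124570400) had 21, 20 and 24 fragments and lay 56961 bp from any control peak. A region at an end of the sensory neuron receptor gene Mrgpra3 had 22, 24 and 21 fragments, a region inside the lipase gene Pnpla2 had 22, 20 and 22, and a region with no gene end within 100 kb (chromosome 15, 94004597 to 94005376) had 25, 22 and 23. The 10 strongest of the 42 thus had 20 to 34 fragments per library, a range that overlaps the regions of 2 mutants.

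Of the 534 regions held by exactly 2 mutants, 395 came from mutants 1 and 2, and so did 9 of the 10 strongest. The first (chromosome 19, 5406456 to 5407628) spanned the start of the non-coding gene 4930481A15Rik and had 36 and 26 fragments in mutants 1 and 2, with no control peak for 16148 bp. A region 3.11 kb from Rab6b, a small GTPase of Golgi transport (chromosome 9, 103108394 to 103108637), had 25 and 36 fragments, the top fold of any member (6.08 in mutant 2). Inside Helz, an RNA helicase gene (chromosome 11, 107629409 to 107629928), the values were 25 and 33 fragments, with no control peak for 53764 bp. None of these 3 regions had a called peak in mutant 3, whose list called peaks from 14 fragments upwards. Their fragments in that library are unknown. Regions inside Efl1, a ribosome maturation GTPase, inside Dnm3, a dynamin, and inside Fam131c had 32 and 23, 27 and 25, and 29 and 23 fragments in mutants 1 and 2. Regions near Zfp992 and Gm17019 and 1 region with no gene end within 100 kb on chromosome 16 (3231642 to 3231952) had 30 and 22, 30 and 25, and 32 and 23. The remaining region of the 10, near Cwc22, came from mutants 2 and 3.

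Some members were gathered in short stretches. Members within 100 kb of each other formed 15 stretches of at least 3, with 59 members (10.2%), and 3 of the stretches held 6 each. In the stretch around Cwc22, a splicing factor gene (chromosome 2, 77876373 to 77988660), 17, 53 and 79 peaks were called in mutants 1, 2 and 3, against 62 peaks in control 1 and 1 peak in control 2. The libraries thus differed within both genotypes there, and control 1 resembled mutants 2 and 3. The stretch from Itln1, an intestinal lectin gene, to Cd244a, a receptor gene of immune cells (chromosome 1, 171524963 to 171579843), had 31, 32 and 11 peaks in mutants 1, 2 and 3, against 10 and 28 in controls 1 and 2. Mutant 3 and control 1 were low there and the other 3 libraries high, again not by genotype. Around Zfp982 (chromosome 4, 147416431 to 147528612) the numbers were 17, 22 and 19 in the mutants and 16 and 17 in the controls. In a gene-dense stretch from Abca7 to Midn (chromosome 10, 80014303 to 80154218), with 5 members, they were 28, 55 and 14, against 33 and 40. Leaving out the 4 stretches, an alternative added after seeing the data, left 553 members.

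**Figure D5:**
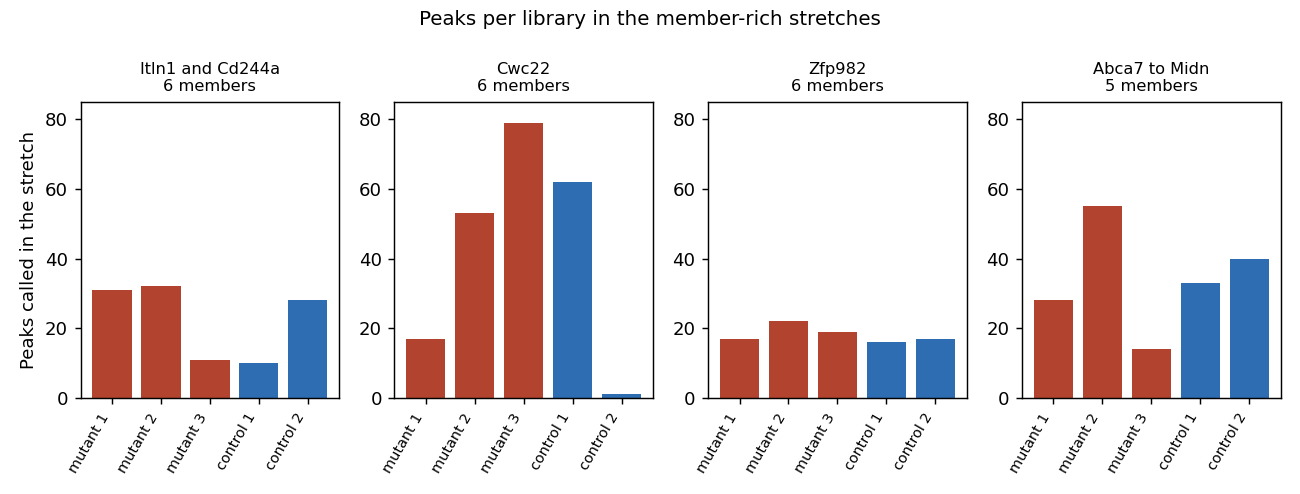
Number of called peaks in each library (vertical axis, mutants red, controls blue) in the 4 stretches with at least 5 mutant-only regions. Around Cwc22 the bars run from 1 in control 2 to 79 in mutant 3, and from Itln1 to Cd244a mutant 3 (11) and control 1 (10) stand below the other libraries.

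Besides Cwc22 with 6 members and Zfp982 with 5, the genes with at least 3 members were Itln1, Cd244a, Cic and Dmbx1, with 3 each. Cic encodes a repressor that is relieved by receptor tyrosine kinase signalling, and its 3 regions lay in the gene body, with 17 to 21 fragments, 112 to 171 bp from control peaks. Dmbx1 encodes a homeodomain factor of the brain, and 1 of its 3 regions was gene-end (chromosome 4, 115940758 to 115941231), with 22 and 23 fragments in mutants 1 and 2. All other genes had at most 2: in all, 545 regions were assigned to 498 genes by the nearest gene end within 100 kb, 462 genes with 1 region and 30 with 2.

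The regions at genes of limb signalling and patterning were counted over 16 gene lists. None of 28 Hedgehog target genes, the genes that the series' question concerns, had a member assigned or in its gene body. Neither had any of 14 listed FGF signalling genes, 31 genes of BAF and other remodelling complexes or 16 blood and macrophage markers. Fgf14, described below, is not in the FGF list. At the share over all genes given next, lists this short can hold no member, so these zeros decide nothing. In all lists together, 20 of 320 genes (6.25%) had a member, beside 2.65% of all 20661 protein-coding genes of chromosomes 1 to 19. Counted by region, 21 of the 545 assigned members (3.85%) had a listed gene as the nearest, beside 4.17% of all assigned regions and 3.61% of those of exactly 1 mutant. The larger share of genes is thus not seen over regions, and no list held more than 3 members.

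Of the Hedgehog pathway genes, 1 of 16 had a member: a region inside Gli2, the main activator among GLI factors (chromosome 1, 119025651 to 119026039), with 18 and 19 fragments in mutants 1 and 2 and a control peak 112 bp away. Of 32 limb patterning genes, 3 had one. A region in the gene body of Prrx1 (chromosome 1, 163303027 to 163303300) had 21 and 18 fragments in mutants 1 and 2, a region inside Lhx2, a factor of limb outgrowth (chromosome 2, 38367156 to 38367587), had 18 and 19, and a region 72.3 kb from Msx1, a target of BMP signalling (chromosome 5, 37896765 to 37897363), had 20 and 25. All 3 were regions of mutants 1 and 2 without mutant 3. The chondrogenesis list had 1 gene of 14, Runx3, with 16 and 20 fragments in mutants 1 and 2, 1481 bp from a control peak.

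Of 21 WNT genes, 2 had members. Axin2, a feedback inhibitor and direct target of WNT signalling, had 2: a region inside the gene (chromosome 11, 108926971 to 108927492) with 22 fragments in both mutants 1 and 2, and a region 8.06 kb outside it (108909518 to 108909858) with 19 and 17. Control peaks lay 61 and 68 bp from them. Wnt10b, a WNT ligand gene, had a region 0.21 kb from a gene end (chromosome 15, 98778306 to 98778536) with 20 and 22 fragments in mutants 2 and 3. The BMP and TGF list had 1 gene of 20, Smad6. Of 16 retinoic acid genes, 2 had members: Cyp26b1, which degrades retinoic acid, with 19 and 16 fragments in mutants 2 and 3, and the receptor gene Rxra, with 19 fragments in both mutants 1 and 2. In none of these lists did more than 3 genes hold a member.

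Regions were also found at markers of cells other than limb mesenchyme. Of 18 ectoderm and apical ridge genes, 2 had members: Krt8, a keratin of simple epithelia, with a region before its start (chromosome 15, 102004383 to 102004683) of 19 and 21 fragments in mutants 1 and 2, and Grhl2, an epithelial transcription factor, with 21 and 20. In the list of neural crest, glia and neurons, the region near Pou4f1, a factor of sensory neurons (chromosome 14, 104459384 to 104459985), was in all 3 mutants with 23, 26 and 17 fragments, 369 bp from a control peak with a fold of 5.39. The endothelial list had Lyl1 (18 and 18 in mutants 1 and 2, in the body of the neighbouring gene Nfix), 1 of 18 genes, and the muscle list Eya4 (15 and 21 in mutants 2 and 3), 1 of 14. Gene-end peaks at the 90 markers were themselves found in fewer cases in mutants 1 and 3 (51 and 39) than in either control (64 and 57), with mutant 2 (58) between the controls. Among the mutants these counts rose with the length of the list (26581 peaks in mutant 3, 35988 in mutant 1 and 42185 in mutant 2). The share over all genes is not given, so the counts do not show a difference particular to these markers. The part of such cells in the result was not tested. Of 19 genes of the germline and silenced list, Zscan10 and Dppa3 had members, and of 19 stress and p53 target genes Cdkn1a, an inhibitor of the cell cycle, had 1 (18 and 18 fragments in mutants 1 and 2).

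Gene starts were examined with the RefSeq windows of 300 bases (250 before and 50 after each start). A member overlapped the window of 38 genes in 35 regions, of which 29 genes were protein-coding, and these genes were named after their values were seen. Over chromosomes 1 to 17 and 19, 45 of 567 members (7.94%) had the strongest summit within 1 kb of the start of a protein-coding gene, beside 47.9% of regions open in all 5 libraries and 2.44% of regions of both controls and no mutant. The 4 windows printed above belong to this set.

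The 29 coding starts varied widely in base composition. Their windows had a median GC content of 63.3% and 16 CpG dinucleotides (quartiles 6 and 26), beside 62.3% and 22 CpG for 9520 genes whose start was open in all 5 libraries, 53.3% and 7 for 224 genes whose start was open in both controls and no mutant, and 46.3% and 3 for 6361 genes without a region. The GLI motif TGGGTGGTC (either strand) was in 0 of the 29 windows and in 0.176% of all 16456 coding windows. The AP-1 motif TGANTCA was in 1 of 29 (3.45%), beside 7.13% of all, and TATAAA in 2 of 29 (6.90%), beside 13.5%. The E-box CANNTG, a short motif found in most windows, was in 75.9%, beside 68.7%. A match is a run of letters and not a binding site.

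The genes with a printed start are regulators and receptors outside the limb lists. Npas2, a clock transcription factor, had 28 and 18 fragments in mutants 2 and 3, with the summit 129 bp before the start and a control peak 224 bp away. Glp1r, the receptor of an incretin hormone, had 20 and 17 fragments in mutants 1 and 2, and the nearest control peak lay 8761 bp off. Cdkn2a, which encodes the cell cycle inhibitor p16INK4a and ARF, had 22 and 17 fragments in mutants 2 and 3 with the summit 73 bp before the annotated start. No control peak lay within 11920 bp of that region, in contrast to Npas2. Eomes, a T-box factor of early lineages, had 21 and 18 fragments in mutants 1 and 2, beside a control peak at 262 bp.

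Other starts touched by members included genes of nerve cells and of secreted or structural proteins. The genes named here are examples, and kinds of genes were not counted over the starts. Slc32a1, the vesicular transporter of GABA, had 25 and 18 fragments in mutants 2 and 3, Fgf14, which tunes sodium channels, 23 and 16 in mutants 2 and 3, and Dpp6, a subunit of potassium channels, 16 and 19 in mutants 1 and 2. The regions at Fgf14 and Dpp6 lay 84296 and 100772 bp from any control peak, and that at Slc32a1 lay 490 bp from one. Col5a3, a collagen gene, had 19 and 17 fragments in mutants 2 and 3, Bmp8b, a BMP ligand gene, had 18 and 16 in mutants 2 and 3, and Astl, an egg protease gene, had 19, 19 and 18 in mutants 1, 2 and 3. Except at the non-coding start on chromosome 19, none of the windows touched by a member had more than 28 fragments in any library.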

How the data were processed

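ATAC-seq was measured in 5 mouse anterior forelimb libraries, 3 mutant and 2 control, each from a separate genotyped embryo per the labels. Replicate numbers were given in accession order and pair nothing. Per the submitters' processing notes, the tools were bcl2fastq 2.20.0, Bowtie2 2.3.5 and MACS2, with the build mm10. Not given in the sources used here are the MACS2 version and options, removal of duplicates and any shift of cut sites, which would move summits by a few bases.

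Each library has its own list of peaks as deposited by the authors, with a fold enrichment at the summit as a ratio, a −log10 p, a −log10 q and an integer score per peak. The list threshold was read from the deposited values, in which the lowest −log10 q was 1.5 to 1.69. The authors' fold lay in steps equal to (fragments + 1) over (background + 1) in 100% of peaks (tolerance 0.02 of a step), and the −log10 p of the resulting counts, for values under 100, matched the deposited ones to within 1.43e-05. Fragments at the summit were taken from this. Read numbers are not given, so no interval or detection limit was computed, and no count test was used.

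Peaks on chromosomes 1 to 19 were merged at 1 bp overlap. "Like fold" means that comparison regions or peaks were weighted to the members' deciles of fold percentile within a list. Gene-end and width differences over the 3 mutant libraries were tested with an exact two-sided sign-flip permutation test, whose smallest p is 0.25. Members are shared between the libraries, so these 3 differences are not independent, which the test does not take into account. No such test is printed for recurrence, because its 3 values share all their recurring regions. Gene ends came from the RefSeq table of GRCm38.p6 (21627 protein-coding genes, either end, since the table gives no strand), gene starts and sequences from the RefSeq promoter windows of the same assembly, without chromosome 18. Regions were assigned to the nearest gene end within 100 kb. All 329 listed symbols matched the table, 320 of them on chromosomes 1 to 19.

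The members and the gene lists were chosen with earlier results of these data known. Named regions were the 10 with the highest mean fold percentile among those of all 3 mutants and among those of exactly 2, those at listed genes and those of genes with at least 3 members (60 regions). Some named regions are not reported here. Alternatives were a −log10 q of at least 5, lists of equal length, each library left out, other merging and presence rules, other gene-end windows, unmatched comparisons and 2 settings added after seeing the data. The scripts were tested on simulated lists. Python 3.11.15, pandas 2.3.3, numpy 2.4.6, scipy 1.17.1 and matplotlib 3.10.9 were used.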

Additional observations from a re-analysis of the deposited data

Results flagged for a closer look

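Chromosome X lay outside the merged regions above, and the same criterion found regions there too. Of 1191 merged regions on chromosome X, 8 (0.672%) held a peak in at least 2 mutants and in neither control, beside 0.674% on chromosomes 1 to 19. None of the 8 was found in all 3 mutants, and 160 regions of chromosome X were called in both controls but in no mutant. The lists had 731, 609 and 613 peaks on chromosome X in mutants 1, 2 and 3, against 950 and 1081 in controls 1 and 2.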

How the results depend on the processing

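The number of regions, 576 as reported, was 329 at a −log10 q of at least 5 (70 of the 576 among them), 2656 with lists of equal length (117 of the 576), 1090 when the summits of 2 mutants had to lie within 250 bp and no control summit within 500 bp, 42 when all 3 mutants had to hold a peak and 298 when no control peak lay within 1 kb. It ran from 107 to 1524 when each library was left out. The median distance to the nearest control peak, 1074.5 bp as reported, was 3165, 7939.5, 0, 1825.5 and 3821 bp under these 5 settings, 2614 bp with peaks up to 500 bp apart merged, and 917 to 1970 bp when each library was left out. The stricter q, the equal length and a left-out control remove control peaks, and the 1 kb rule removes the members nearest to one. The wider merging joins a region to any control peak up to 500 bp away. By contrast, the summit rule lets a region overlap a control peak, which gives a distance of 0. The distances under these settings thus follow in part from their construction. For the remaining settings the cause was not tested. The mean share of regions found in the other control, 55.6%, was 62.9% at the stricter q and 34.3% at equal length, and 55.7% to 63.5% when each mutant was left out. The mean summit distance, 101 bp, was 82.3 bp at the stricter q, 140 bp by the summit rule, 126 bp with the wider merging, 83.7 bp without control peaks within 1 kb and 94.0 to 104 bp with a library left out. The gene-end difference, -5.62 points, turned to 0.57 points by the summit rule and to 1.14 points with a 5 kb window, and ran from -11.2 to -2.58 points with a library left out. The width difference, -13.3 bp, turned to 27.7 bp by the summit rule and ran from -28.8 to -5.25 bp with a library left out. The lower recurrence in the left-out mutant, -33.2 points, kept its direction under each alternative run (-60.8 to -11.5 points), with -43.8 to -28.4 points when each library was left out. Of the 60 named regions, 27 remained at the stricter q, 29 at equal length, 49 by the summit rule, 33 with the wider merging, 13 by the all-mutant rule, 27 by the 1 kb rule, 24 without mutant 1, 17 without mutant 2, 45 without mutant 3, 43 without the stretches and 60 without either control. Recurrence was not computed for the summit, all-mutant and 1 kb rules, which define no left-out choice. With 3 libraries no p of the gene-end and width differences could fall below 0.25, so the tests cannot separate a small difference from none. Without read numbers, a control region under the calling threshold cannot be told from a closed one. No paired analysis was possible because the labels give no replicate numbers that the groups share.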

Other observations

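A microRNA gene lay between 2 of the regions. Mir125b-1, which encodes a microRNA of differentiating tissues (hairpin on chromosome 9, 41581926 to 41582002, mm10), had a region on either side of its hairpin, 245 bp and 104 bp away. The region at 41581289 to 41581681 had 21 and 22 fragments at the summit in mutants 1 and 2, and the region at 41582106 to 41582467 had 21 and 18. Neither was called in mutant 3, and the nearest control peaks lay 188 and 1005 bp from them. A region overlapping the hairpin of Mir7088 (chromosome 9, 108081544 to 108082018) had 20 and 18 fragments in mutants 1 and 2 and lay 104 bp from a control peak.

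Peaks called on chromosome Y numbered 3, 10 and 14 in mutants 1, 2 and 3, against 16 in each control. Chromosome Y entered no comparison.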
